A study of Mus musculus with 8 samples.

Results

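The expression of 8 complement genes, C1ra, C1s1, Masp1, C4b, C3, Cfb, Serping1 and Cd55, was followed in spheroids of 2 mouse mammary cell lines kept without and with PM2.5, the fine fraction of airborne particulate matter. The genes were taken by symbol from the deposited count table, 8 of its 25413 rows. Of these, 7 passed the filter on low counts. Cd55 had 0 counts in its exons in all 8 libraries and entered no test. Polyadenylated RNA was sequenced from EpH4, whose genotype is given as WT (wildtype), and from EpH4-AS, whose genotype is given as AS-transformed, a malignantly transformed line. Both lines were grown as spheroids, rounded aggregates in 3D culture, and each was an untreated control or was given PM2.5. What AS stands for, the PM2.5 dose and the length of exposure were not found in the labels. Each of the 4 groups had 2 libraries, all under 1 batch label. Because nothing states that the libraries of a group were separate cultures, the p values cover only how far these libraries spread, which can be technical.

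Complement is a cascade of blood and tissue proteins that marks surfaces for clearance and lyses cells. In the classical pathway, C1q bound to a target activates the proteases C1r and C1s, which cleave C4 and C2. In the lectin pathway, mannose-binding lectins and ficolins do so through the MASP proteases, and in the alternative pathway factor B joins C3b to form the convertase that cleaves more C3. All 3 routes meet at C3. C1 inhibitor, the product of Serping1, blocks C1r, C1s and the MASPs, and CD55 on the cell surface speeds the decay of the convertases. The liver makes most plasma complement, while epithelial and stromal cells make components locally and raise C3, factor B, C1r and C1s in response to inflammatory cytokines. The mouse has paired copies of several of these genes: C1ra and C1rb, C1s1 and C1s2, C4b and C4a (the sex-limited protein), and Cd55 and Cd55b.

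The copies matter for what follows, because reads of near-identical genes can be split between them. Coding sequences of the GENCODE M21 transcripts, an annotation on GRCm38, were aligned in pairs. C1ra and C1rb agreed at 2076 of 2118 aligned bases (98.0%), and 59.7% of all 50-base windows of C1ra also occurred in C1rb. C1s1 and C1s2 agreed at 1992 of 2082 bases (95.7%), and 30.0% of the 50-base windows of C1s1 occurred in C1s2. The stretches of 90 bases below, coding bases 912 to 1001 for the C1r pair and 323 to 412 for the C1s pair, were chosen as typical of each pair, and capitals mark the bases that differ between the copies, 2 in the first pair and 4 in the second.
C1ra: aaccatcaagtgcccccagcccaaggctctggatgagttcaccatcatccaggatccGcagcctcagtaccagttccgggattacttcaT
C1rb: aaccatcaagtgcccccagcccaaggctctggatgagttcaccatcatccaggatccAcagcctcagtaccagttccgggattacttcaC
C1s1: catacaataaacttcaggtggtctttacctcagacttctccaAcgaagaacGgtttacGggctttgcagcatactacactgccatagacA
C1s2: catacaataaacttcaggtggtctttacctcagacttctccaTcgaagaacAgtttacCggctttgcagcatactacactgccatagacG

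Promoters of 4 of the 8 genes were found in the RefSeq table (GRCm38.p6), namely C3, C1s1, C1ra and Cd55. The 150 bases before the annotated start are shown for the 3 of them that had counts, because these genes were called higher with PM2.5 in EpH4. Capitals mark letters that match the C/EBP motif TTNNGNAA on either strand, searched because C/EBP factors are known to act on complement genes.
C3: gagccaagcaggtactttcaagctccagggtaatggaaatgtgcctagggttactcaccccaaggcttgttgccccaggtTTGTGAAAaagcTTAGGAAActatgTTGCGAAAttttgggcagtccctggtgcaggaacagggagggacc
C1s1: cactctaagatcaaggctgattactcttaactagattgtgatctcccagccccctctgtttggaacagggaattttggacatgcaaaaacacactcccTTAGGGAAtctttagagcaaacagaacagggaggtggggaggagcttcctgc
C1ra: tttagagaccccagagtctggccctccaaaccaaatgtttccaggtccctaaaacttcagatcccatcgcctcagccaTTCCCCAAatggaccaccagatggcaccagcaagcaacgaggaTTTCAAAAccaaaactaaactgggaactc
They lie at chr17:57228137-57228286, minus strand for C3, chr6:124542360-124542509, minus strand for C1s1 and chr6:124512471-124512620, plus strand for C1ra. The C3 stretch held the letters at 3 places, starting at -70, -58 and -45 from the start, the last on both strands. C1s1 held them at -52 and, outside the bases shown, at -242. C1ra held them at -72 and -29 and again at 17 bases after the start. The Cd55 promoter, not shown, held no match to this motif in its 300 bases. Among 32851 promoters of 300 bases, 40.7% held a match, so these letters are common. In the full 300 bases, the STAT motif TTCNNNGAA (in 8.30% of promoters) occurred at 33 bases after the C1ra start and TATAAA (in 13.6%) at 15 bases after the C3 start. Letters of the NF-kB motif (8.46% of promoters), the IRF motif ISRE (3.44%) and the AP-1 motif TGANTCA (7.81%) were in none of the promoters of these 4 genes.

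Total counts ran from 15393256 to 27765982 per library, and were higher in EpH4 than in EpH4-AS throughout. Reads within genes that fell outside exons were 11.3 to 12.5% of gene reads in EpH4 and 3.39 to 3.59% in EpH4-AS, and mitochondrially encoded genes took 2.21 to 5.03% and 0.219 to 0.302% of counts. The cell type label is mammary epithelium, but of 8 luminal epithelial markers 0 reached a mean of 1 CPM (counts scaled to a common library size) in any group, and Krt19 and Cldn4 had 0 counts in all. Summed fibroblast markers were at 2423 to 2818 CPM in EpH4 and at 404 to 582 CPM in EpH4-AS, mostly Dcn, Col1a2 and Pdgfra. Col3a1 and Lum went the other way, with means of 0.749 and 0.589 CPM in untreated EpH4 and 45.1 and 3.21 CPM in untreated EpH4-AS. Adipocyte markers summed to 0.716 to 1.31 CPM in EpH4 and 57.1 to 66.2 CPM in EpH4-AS, mostly Cidec, while Lep had 0 counts. Basal markers summed to 2.57 to 9.78 CPM over all libraries, and endothelial markers to at most 0.945 CPM. Macrophage markers summed to 176 to 225 CPM in EpH4 and 38.8 to 42.3 CPM in EpH4-AS, nearly all of it Cd68, and group means of Csf1r were at most 0.223 CPM. Hepatocyte markers stayed under 1 CPM, with a highest sum of 0.933. The part of these differences in the values of the complement genes was not tested, and in bulk RNA fewer cells of a type cannot be told apart from less RNA per cell.

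In EpH4, PM2.5 raised C1ra, C1s1, Masp1, C4b, C3 and Serping1, 6 of the 7 genes tested, by 1.28 to 2.42 times. Cfb did not pass the test. Among all genes tested, 27.2% were called in this comparison and 14.3% were called higher. In EpH4-AS, PM2.5 raised C3 alone among the 7, by 2.52 times, where 11.1% of all genes were called, 6.39% higher and 4.75% lower. The median log2 fold change of the 7 genes was 0.61 in EpH4 and 0.47 in EpH4-AS, beside 0.00438 and 0.00245 over all genes tested. The EpH4-AS median was the value of Serping1, which had few counts and was not called. Cfb and Masp1 lay above it, also on few counts and not called. C1ra and C1s1, with far more counts, changed by 0.18 and -0.05 in EpH4-AS. These tests compared counts in edgeR's quasi-likelihood model of the 4 groups, adjusted by Benjamini-Hochberg over 13716 genes with a threshold of 0.05. Each fold change below is given on the log2 scale ± its standard error (SE).

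Between the lines, C3, C1s1, Masp1 and Cfb were lower in untreated EpH4-AS than in untreated EpH4, and C1ra was higher. This made 5 of 7 called, where 89.2% of all genes were called, 43.6% higher and 45.7% lower. With PM2.5, C3, C4b, C1s1, Masp1 and Cfb were lower in EpH4-AS, again 5 of 7, beside 89.0% of all genes, 45.5% in the lower direction. A share of called genes as high as this means that being called between the lines does not set these genes apart. The median log2 difference of the 7 genes was -1.37 untreated and -1.95 with PM2.5, against -0.0550 and -0.0371 over all genes. The median with PM2.5 was the value of Cfb, on 50 counts in EpH4 and 9 in EpH4-AS. Masp1, which lay below both medians, changed direction when reads outside exons were counted too, as given below. The PM2.5 effect itself differed between the lines for 3 of 7 genes, C3, C1s1 and C4b, where 14.1% of all genes were called, 7.60% with a more positive effect in EpH4-AS and 6.49% with a more negative one.

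**Figure D1:**
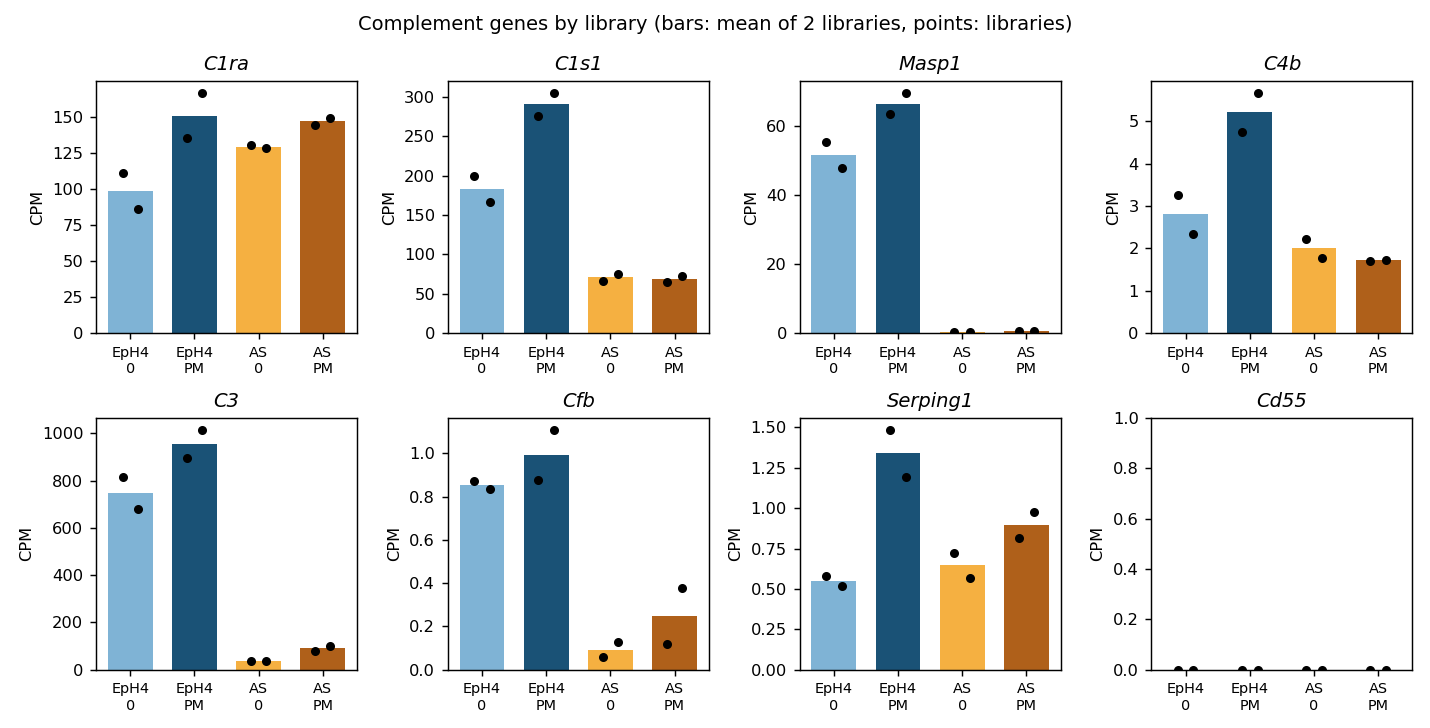
CPM (counts scaled to a common library size, vertical axis, from 0) of the 8 complement genes in the 4 groups, with bars for the mean of 2 libraries and points for the libraries. 0 stands for untreated, PM for PM2.5 and AS for EpH4-AS. C3 and Masp1 are far lower in EpH4-AS, C1ra is lowest in untreated EpH4, and Cd55 is at 0.

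**Figure D2:**
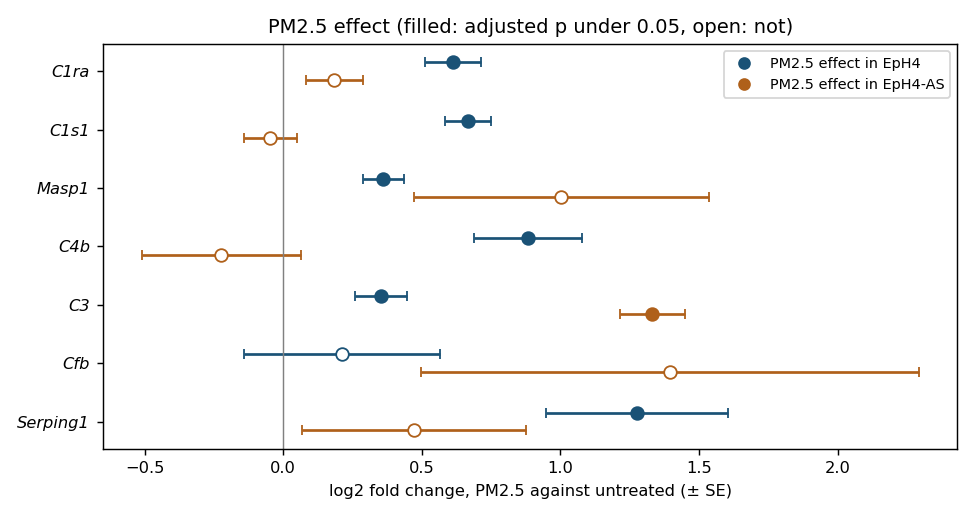
Log2 fold change of 7 complement genes with PM2.5 (horizontal axis, ± SE from the edgeR test) in EpH4 and EpH4-AS. Filled points had an adjusted p under 0.05. In EpH4 all but Cfb are filled, and in EpH4-AS only C3 is, at 1.33.

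C1r and C1s are the serine proteases of the first complement component. C1ra (ENSMUSG00000055172, chr6:124489364-124500402 on GRCm39, plus strand) was at 111 and 85.9 CPM in untreated EpH4 and at 135 and 166 CPM with PM2.5. In EpH4-AS it was at 130 and 128 CPM untreated and at 144 and 149 CPM with PM2.5. The 2 untreated EpH4 libraries were thus the lowest of the 8, and the exposed EpH4 libraries lay on either side of the exposed EpH4-AS libraries. C1ra rose with PM2.5 in EpH4 by 0.61 ± 0.10 (adjusted p = 0.000606). In EpH4-AS the change was 0.18 ± 0.10 (adjusted p = 0.297), although both exposed libraries lay above both untreated ones. Between untreated lines C1ra was higher in EpH4-AS by 0.39 ± 0.10 (adjusted p = 0.00264), and with PM2.5 the difference was -0.04 ± 0.10 (adjusted p = 0.728). In RPKM, the authors' length-scaled unit, exposed EpH4-AS stood above exposed EpH4 (45.7 ± 1.32 against 41.9 ± 6.53, SD, n = 2), whereas in CPM the order was the reverse, within the spread of the libraries. The 2 units scale the lines differently. For example, Cebpb averaged 234 CPM in both untreated lines, but 129 RPKM in EpH4 and 147 RPKM in EpH4-AS.

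C1s1 (ENSMUSG00000038521, chr6:124507304-124519318, minus strand) lies 6902 bases from C1ra, with the ends of the 2 genes facing each other. Its levels were 200 and 166 CPM in untreated EpH4 and 276 and 305 CPM with PM2.5, and in EpH4-AS 66.7 and 75.4 CPM untreated and 64.5 and 73.0 CPM with PM2.5. All EpH4 libraries were above all EpH4-AS libraries, and within EpH4-AS the 2 treatments overlapped. C1s1 rose with PM2.5 in EpH4 by 0.67 ± 0.08 (adjusted p = 7.82e-05), and the change in EpH4-AS was -0.05 ± 0.10 (adjusted p = 0.827). The PM2.5 effect was smaller in EpH4-AS, with an interaction of -0.71 ± 0.13 (adjusted p = 0.00231). C1s1 was lower in EpH4-AS, at -1.37 ± 0.09 untreated (adjusted p = 1.72e-09) and -2.08 ± 0.09 with PM2.5 (adjusted p = 1.24e-11). The ratio of C1s1 to C1ra in RPKM was 1.80 to 2.04 over the 4 EpH4 libraries and 0.445 to 0.588 over the 4 EpH4-AS libraries. The neighbouring protease genes thus stood in opposite order of level in the 2 lines.

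The copies of these proteases, C1rb and C1s2, were nearly absent in EpH4 and abundant in EpH4-AS. C1rb averaged 0.228 ± 0.0145 CPM in untreated EpH4 and 99.5 ± 2.82 CPM in untreated EpH4-AS (SD, n = 2), and with PM2.5 it averaged 0.295 ± 0.0681 and 116 ± 1.65 CPM. C1s2 averaged 0.252 ± 0.150 CPM in untreated EpH4 and 35.1 ± 1.74 CPM in untreated EpH4-AS (SD, n = 2). C1rb held 0.237% of the counts of the C1r pair in untreated EpH4 and 43.5% in untreated EpH4-AS, and C1s2 held 0.144% and 33.1% of its pair. Neither share moved far with PM2.5, at 0.201% and 44.2% for C1rb and 0.211% and 34.7% for C1s2. Reads were summed within each pair, since their split between near-identical copies is uncertain. The summed C1r pair averaged 98.6 ± 17.6 CPM in untreated EpH4 and 229 ± 4.60 CPM in untreated EpH4-AS (SD, n = 2). It was higher in EpH4-AS by 1.21 ± 0.10 untreated (adjusted p = 2.69e-08) and by 0.80 ± 0.10 with PM2.5 (adjusted p = 2.32e-06), where C1ra alone gave -0.04. The summed C1s pair was still lower in EpH4-AS, at -0.79 ± 0.09 untreated (adjusted p = 4.81e-07) and -1.47 ± 0.08 with PM2.5 (adjusted p = 3.12e-10). In EpH4 the copies held too few counts for adding them to change the PM2.5 effects, which were 0.61 for the C1r pair and 0.67 for the C1s pair.

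**Figure D3:**
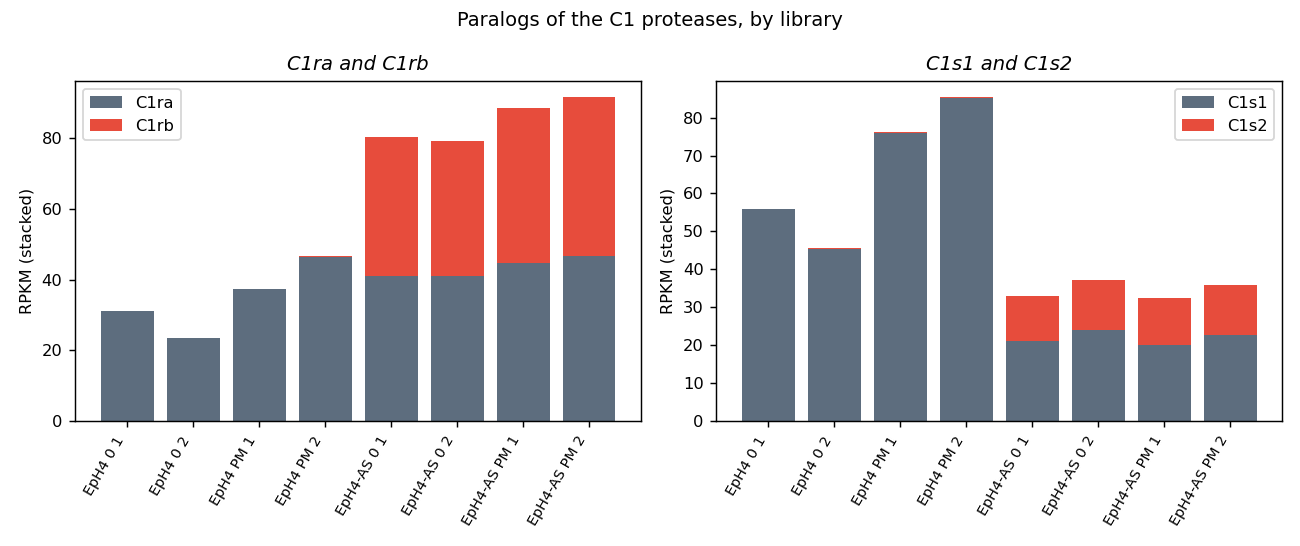
RPKM of C1ra with C1rb (left) and of C1s1 with C1s2 (right), stacked, in each of the 8 libraries. 0 stands for untreated and PM for PM2.5. C1rb and C1s2 are hardly visible in the EpH4 libraries and make up a large part of the bar in every EpH4-AS library.

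Masp1 encodes proteases of the lectin pathway. The gene (ENSMUSG00000022887, chr16:23268167-23339565, minus strand) had 1526 and 1207 exon counts in untreated EpH4, or 55.5 and 48.0 CPM, and was at 63.4 and 69.6 CPM with PM2.5. In EpH4-AS it had 4 and 5 exon counts untreated and 9 and 11 with PM2.5, at 0.241 to 0.597 CPM. No EpH4-AS library came near an EpH4 library. Masp1 rose with PM2.5 in EpH4 by 0.36 ± 0.07 (adjusted p = 0.00263), while in EpH4-AS the change was 1.0 ± 0.53 on these few counts (adjusted p = 0.262). From pooled counts, untreated EpH4 had 187 times the Masp1 level of untreated EpH4-AS (95% counting interval 98.4 to 409). This interval leaves out the spread between libraries. The edgeR fit gave a log2 difference of -7.51 ± 0.19 for EpH4-AS (adjusted p = 2.92e-14).

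Reads elsewhere in the Masp1 gene went the other way. Outside exons, EpH4-AS had 1158 and 1010 reads untreated and 1249 and 1428 with PM2.5, whereas EpH4 had 112 and 99 untreated and 167 and 148 with PM2.5. These reads were 99.6% of the gene's reads in untreated EpH4-AS and 7.21% in untreated EpH4, although EpH4-AS had the smaller share of such reads over the whole library. On the CPM scale, reads outside exons averaged 66.8 ± 4.13 in untreated EpH4-AS (SD, n = 2), of the order of the exon level of 51.7 ± 5.28 CPM in untreated EpH4. Counted over the whole gene, Masp1 was higher in EpH4-AS by 0.49 ± 0.08 untreated (adjusted p = 7.97e-05) and by 0.29 ± 0.08 with PM2.5 (adjusted p = 0.00378), so the direction depended on which reads were counted. The gene shares 524 bases with Rtp4 on the opposite strand, which had 0 to 76 counts in the 8 libraries. Where in the gene the reads outside exons lay cannot be read from these tables.

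**Figure D4:**
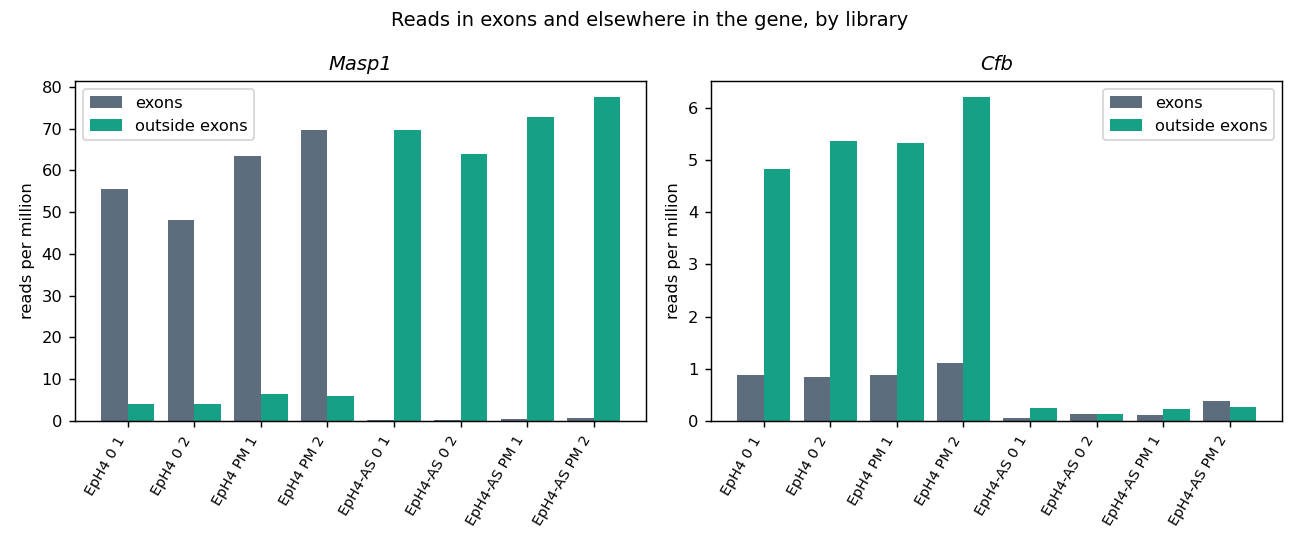
Reads on the CPM scale in exons and outside exons of Masp1 (left) and Cfb (right) in each of the 8 libraries. 0 stands for untreated and PM for PM2.5. Masp1 reads are mostly in exons in EpH4 and almost all outside them in EpH4-AS, and Cfb reads are mostly outside exons in EpH4.

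C4b encodes C4, the substrate of C1s and a part of the classical C3 convertase. It (ENSMUSG00000073418, chr17:34947354-34962856, minus strand) was at 3.27 and 2.35 CPM in untreated EpH4 and at 4.76 and 5.67 CPM with PM2.5. In EpH4-AS it was at 2.23 and 1.77 CPM untreated and at 1.69 and 1.74 CPM with PM2.5. The exposed EpH4 libraries were the highest, and the other 3 groups lay close together without overlapping. C4b rose with PM2.5 in EpH4 by 0.88 ± 0.20 (adjusted p = 0.00421), and the change in EpH4-AS was -0.22 ± 0.29 (adjusted p = 0.693). With PM2.5 it was lower in EpH4-AS, at -1.60 ± 0.23 (adjusted p = 1.14e-05), and untreated the difference was -0.49 ± 0.25 (adjusted p = 0.0735). The interaction of -1.11 ± 0.35 was near the threshold (adjusted p = 0.0488) and did not pass it when any 1 of 6 libraries was left out, with adjusted p from 0.0881 to 0.229 without untreated EpH4 replicate 2, exposed EpH4 replicate 2 or any EpH4-AS library. C4a, the copy of C4b 65213 bases away, averaged 9.88 ± 0.0897 CPM in untreated EpH4 and 8.85 ± 0.614 CPM with PM2.5, and 1.74 ± 0.671 and 1.48 ± 0.202 CPM in EpH4-AS (SD, n = 2). With C4b and C4a added, the PM2.5 effect in EpH4 was 0.15 ± 0.11 (adjusted p = 0.336), and untreated EpH4-AS was lower, at -1.76 ± 0.14 (adjusted p = 1.37e-08). The call of C4b in EpH4 therefore holds only for reads assigned to C4b itself.

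C3 is the protein on which all complement pathways converge. It (ENSMUSG00000024164, chr17:57510970-57535136, minus strand) was the most abundant of the 8 genes per length in EpH4, at 120 ± 17.3 RPKM untreated and 154 ± 15.2 RPKM with PM2.5 (SD, n = 2). Its level was 815 and 680 CPM in untreated EpH4 and 895 and 1016 CPM with PM2.5. In EpH4-AS it was 35.6 and 37.1 CPM untreated, and 81.3 and 102 CPM with PM2.5. The 4 groups did not overlap, and exposed EpH4-AS remained far below untreated EpH4. By RPKM C3 ranked at the 97.3 to 98.3 percentile of tested genes in the EpH4 libraries. In EpH4-AS it ranked at the 50.5 and 51.3 percentile untreated and at the 69.1 and 73.9 percentile with PM2.5. C3 was lower in untreated EpH4-AS by a factor of 20.6 (log2 -4.36 ± 0.12, adjusted p = 5.05e-14), and with PM2.5 by a factor of 10.4 (log2 -3.38 ± 0.11, adjusted p = 2.96e-13).

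C3 was the single gene of the 7 that PM2.5 raised in both lines. The rise was 1.33 ± 0.12 in EpH4-AS (adjusted p = 7.50e-06), which ranked 663 by size among the 13716 genes, and 0.35 ± 0.09 in EpH4 (adjusted p = 0.0120). The effect was larger in EpH4-AS by 0.98 ± 0.15 (interaction, adjusted p = 0.000747). The smaller rise in EpH4 rested on single libraries. Without untreated EpH4 replicate 2 it was 0.23 (adjusted p = 0.0820), and without exposed EpH4 replicate 2 it was 0.26 (adjusted p = 0.104). It also missed the threshold in the DESeq2 Wald test (adjusted p = 0.105) and with limma-trend on RPKM (adjusted p = 0.0762). C3 made up 54.1 to 59.3% of the summed RPKM of the 8 genes in EpH4, 9.40 and 9.50% in untreated EpH4-AS and 18.3 and 20.8% in exposed EpH4-AS, where C1ra held the largest share, 52.5 to 59.3% over the 4 EpH4-AS libraries.

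Cfb encodes factor B, the protease of the alternative pathway convertase. It (ENSMUSG00000090231, chr17:35075350-35081494, minus strand) was scarce, with 24 and 21 counts in untreated EpH4, and 23 and 27 with PM2.5. EpH4-AS had 1 and 2 counts untreated and 2 and 7 with PM2.5. The lines did not overlap, and the treatments of EpH4-AS did. From pooled counts, untreated EpH4 had 9.24 times the level of untreated EpH4-AS, with a 95% counting interval from 2.97 to 46.5 on 45 against 3 counts (edgeR test of the lines, adjusted p = 0.000425). With PM2.5 the ratio was 3.91 (1.90 to 9.03, adjusted p = 0.00205). Both intervals leave out the spread between libraries. The PM2.5 effect was 0.21 ± 0.35 in EpH4 (adjusted p = 0.716) and 1.39 ± 0.90 in EpH4-AS (adjusted p = 0.371). In EpH4, 85.6% of the gene's reads lay outside its exons untreated and 85.4% with PM2.5. The gene lies inside Gm20547 on the same strand but for a few bases, 86 bases from C2 and 2 bases from Nelfe, and how reads were divided among these genes was not tested.

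Of the 2 regulators, Serping1 was low and Cd55 was not seen in exons. Serping1 (ENSMUSG00000023224, chr2:84595731-84605788, minus strand) had 16 and 13 counts in untreated EpH4, or 0.581 and 0.517 CPM, and 39 and 29 counts with PM2.5, or 1.49 and 1.19 CPM. In EpH4-AS it was at 0.722 and 0.569 CPM untreated and at 0.817 and 0.977 CPM with PM2.5. The exposed EpH4 libraries were the highest, and the untreated groups of the lines overlapped. Serping1 rose with PM2.5 in EpH4 by 1.28 ± 0.33 (adjusted p = 0.0104), the largest log2 fold change of the 7 genes there. It missed the threshold in the DESeq2 Wald test (adjusted p = 0.134), without untreated EpH4 replicate 2 (adjusted p = 0.0594) and without exposed EpH4 replicate 1 (adjusted p = 0.0769). In EpH4-AS the change was 0.47 ± 0.40 (adjusted p = 0.524), and between lines it was 0.23 ± 0.41 untreated (adjusted p = 0.601) and -0.57 ± 0.33 with PM2.5 (adjusted p = 0.109). Cd55 (ENSMUSG00000026399, chr1:130366764-130390481, minus strand) had 0 exon counts in 8 of 8 libraries, which allows up to 0.109 to 0.190 CPM depending on the library (3 counts). This limit covers counting error only. Cd55b, its copy, had 0 counts as well. Outside exons, Cd55 had 9 and 6 reads in untreated EpH4, 11 and 5 with PM2.5 and 0 in each EpH4-AS library.

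Per length, the order of the genes in untreated EpH4 was C3, C1s1 (50.7 ± 7.46 RPKM), C1ra (27.3 ± 5.35), Masp1 (5.01 ± 0.594), C4b (0.430 ± 0.107), Cfb (0.250 ± 0.0119) and Serping1 (0.226 ± 0.0225). Cfb and Serping1 did not differ beyond their spread. In untreated EpH4-AS the order was C1ra (41.05 ± 0.164 RPKM), C1s1 (22.5 ± 2.17), C3 (6.71 ± 0.259), C4b (0.350 ± 0.0531), Serping1 (0.304 ± 0.0481), Cfb (0.0314 ± 0.0160) and Masp1 (0.0309 ± 0.00621), all SD, n = 2. Neither C4b and Serping1 nor Cfb and Masp1 differed beyond their spread there. The summed RPKM of the 8 genes was 183 to 305 in the EpH4 libraries and 69.5 to 88.7 in the EpH4-AS libraries, exposed above untreated within each line. This sum leaves out the copies C1rb and C1s2, which averaged 38.8 and 12.5 RPKM in untreated EpH4-AS and 0.0777 RPKM each in untreated EpH4. The gap between the lines therefore depends on which copies are listed.

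The wider set of complement genes was described in the same way. Of 54 further complement genes, 46 had a count and 27 were tested. In EpH4, 2 rose and 1 fell, beside 27.2% of all genes called, and in EpH4-AS 2 rose, beside 11.1% of all genes called. Clusterin (Clu), which binds terminal complexes, rose in both lines, by 0.25 ± 0.09 in EpH4 (adjusted p = 0.0489) and by 0.44 ± 0.09 in EpH4-AS (adjusted p = 0.00663). Its libraries overlapped in EpH4, at 84.1 and 67.5 CPM untreated and 84.06 and 96.3 CPM with PM2.5, and not in EpH4-AS. C1s2 rose in EpH4 by 1.29 ± 0.41 (adjusted p = 0.0313), on only 4 and 9 counts untreated and 15 and 16 with PM2.5. How reads were divided there between C1s2 and the far more abundant C1s1 was not tested. C1rb rose in EpH4-AS by 0.23 ± 0.05 (adjusted p = 0.0167). Masp2, the lectin pathway protease that cleaves C4 and C2, fell in EpH4 from 24.5 ± 3.36 to 10.9 ± 0.894 CPM (SD, n = 2; log2 -1.16 ± 0.12, adjusted p = 2.16e-05), opposite in sign to Masp1. The C1q chains C1qa, C1qb and C1qc had 0 counts in every library. The median log2 fold change of the 27 was 0.0436 in EpH4 and 0.321 in EpH4-AS, with genes at 0 in a group set to 3 counts, beside 0.00438 and 0.00245 over all genes tested. The EpH4-AS median drew on genes with few counts there, and 25 of the 27 were not called. Fcna, Itgb2 and Masp2 had 3, 3 and 9 counts untreated and 9, 8 and 14 with PM2.5. C6 and C7 went from 42 and 19 counts to 29 and 15. C1qbp, with far more counts, averaged 61.0 CPM in EpH4-AS both untreated and with PM2.5.

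Between untreated lines 26 of the 27 were called, 13 higher and 13 lower in EpH4-AS, where 89.2% of all genes were called, 43.6% higher and 45.7% lower. Counts by subgroup are given as a description, with no test. All 3 lectin pathway genes tested were lower in EpH4-AS, Masp2 by a factor of 86.5, and Fcna and Colec12 with it. All 4 soluble regulators called were higher there, though Cfhr4, Cpn1 and Cfi had only 1, 1 and 3 counts in untreated EpH4. Of the membrane regulators 3 were higher and 3 lower, and the CD59 copies differed in sign. The 3 that were higher, Susd4, Cd59b and Csmd3, had 2, 1 and 5 counts in untreated EpH4. Cd59a, which blocks the membrane attack complex, was at 8.78 ± 0.275 CPM in untreated EpH4 and 0.123 ± 0.00429 CPM in untreated EpH4-AS, and Cd59b at 0.0199 ± 0.0281 and 1.29 ± 0.129 CPM (SD, n = 2). How reads were divided between these copies was not tested. C2, the partner of C4 in the classical convertase, was at 0.0761 ± 0.00483 and 0.402 ± 0.0576 CPM, so it stayed low in both lines.

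**Figure D5:**
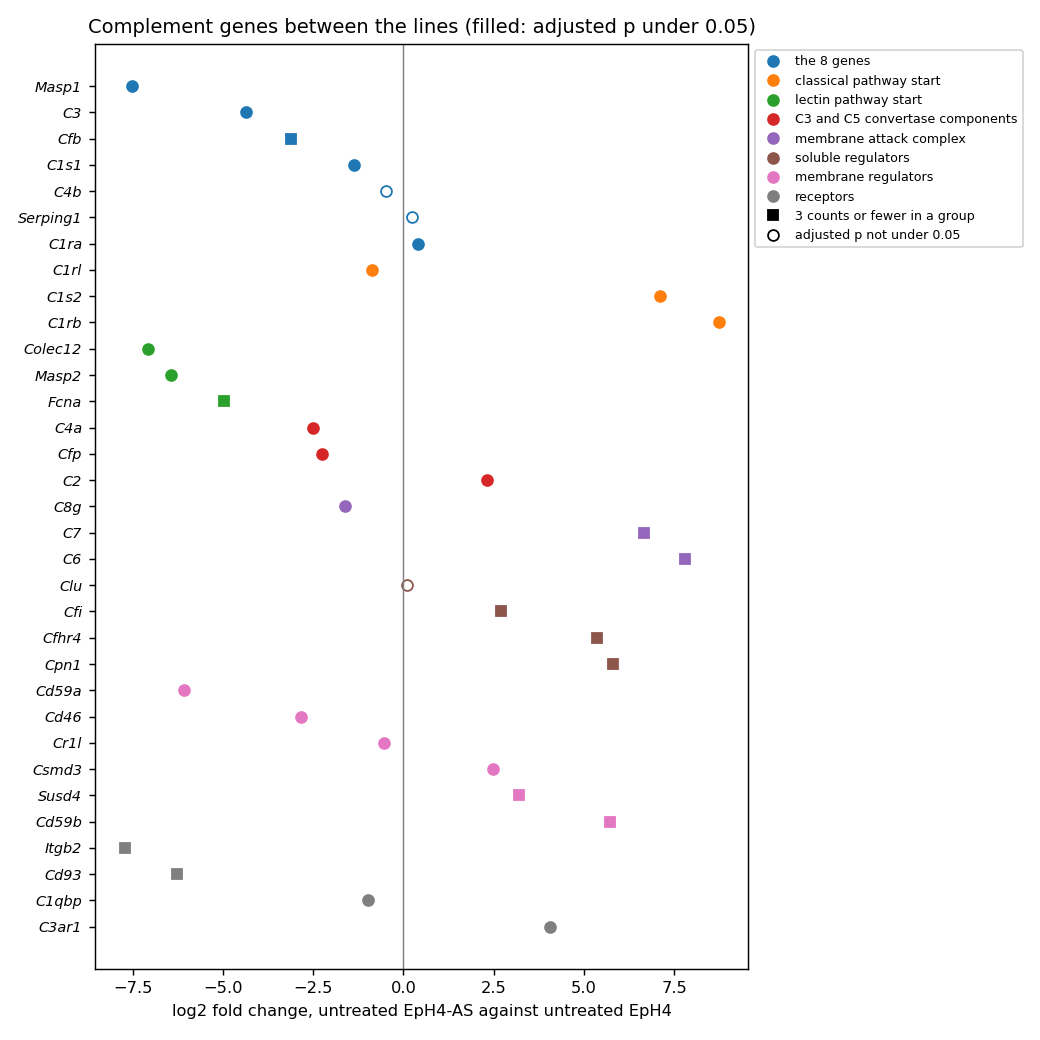
Log2 fold change of untreated EpH4-AS against untreated EpH4 (horizontal axis) for 7 of the 8 complement genes and 26 others, coloured by role. Squares mark genes with 3 counts or fewer in a group, whose fitted values depend on the prior count. Lectin pathway genes lie left of 0, and soluble regulators lie right of it, apart from the open point of Clu close to 0.

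Factors and receptors known to induce complement genes were described beside them. Of the 23 tested, 11 rose and 1 fell with PM2.5 in EpH4, and 9 rose in EpH4-AS, with median log2 fold changes of 0.231 and 0.164. Over all genes, 14.3% were called higher and 12.9% lower in EpH4, and 6.39% higher in EpH4-AS. The interaction was called for 11, with a more positive change in EpH4-AS for 8 and a more negative one for 3, beside 14.1% of all genes. Irf1, an interferon-responsive factor, was at 73.1 and 84.8 CPM in untreated EpH4 and at 99.9 and 97.2 CPM with PM2.5. In EpH4-AS it went from 63.7 and 64.4 CPM to 160 and 172 CPM. Like C3, it rose more in EpH4-AS (1.37 ± 0.07, adjusted p = 2.39e-08) than in EpH4 (0.32 ± 0.07, adjusted p = 0.00286), with an interaction of 1.05 ± 0.10 (adjusted p = 3.08e-05). The NF-kB subunit gene Nfkb2 rose by 0.73 ± 0.05 in EpH4-AS (adjusted p = 7.40e-07) and by 0.32 ± 0.05 in EpH4 (adjusted p = 0.000511), with an interaction of 0.41 ± 0.07 (adjusted p = 0.00201). Cebpb rose in EpH4-AS by 0.38 ± 0.05 (adjusted p = 0.000252). In EpH4 it hardly moved, averaging 234 ± 4.33 CPM untreated and 241 ± 5.39 CPM with PM2.5 (SD, n = 2). Stat3 and Cebpd had interactions of the other sign, as C1s1 and C4b did. Whether any of these factors acted on the complement genes was not tested. Cebpd rose in EpH4 by 0.40 ± 0.13 (adjusted p = 0.0303), and its interaction was -0.91 ± 0.24 (adjusted p = 0.0231). Its EpH4 libraries spread widely, at 60.9 and 42.3 CPM untreated and 61.2 and 75.6 CPM with PM2.5. Stat3 rose in EpH4 by 0.32 ± 0.07 (adjusted p = 0.00407), and its interaction was -0.45 ± 0.10 (adjusted p = 0.00927).

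The genes whose centred log2 CPM profile over the 8 libraries was closest to each complement gene were found by Euclidean distance. For C3 they were Syt12 (0.403), Il12rb1 (0.449) and Procr (0.523), and for C1s1 they were Zgrf1 (0.256), Rapgef3 (0.317) and Pcdhb22 (0.337). Trim47 (0.179), Olfm1 (0.190) and Mms22l (0.234) were closest to C1ra, and Fst (0.365), Vegfd (0.393) and Plxnb3 (0.409) to C4b. For Masp1 the closest were Daam2 (0.689), Cp (0.969) and Syt7 (0.971), for Cfb Wdr38 (0.595), Smim33 (0.658) and Slc1a2 (0.747), and for Serping1 E2f7 (0.433), Gsta4 (0.484) and Taldo1 (0.510). Syt12, Syt7 and Smim33 had 0 counts in untreated EpH4-AS and Daam2 had 1. Their distances therefore depend on the prior count of 2 added before taking logs. In the edgeR fit, Syt12 differed between untreated lines by -8.08, against -4.36 for C3. Among the 7 complement genes the closest profiles were those of C1ra and Serping1, at 0.920, and the farthest those of C1ra and Masp1, at 10. C1ra and Serping1 also varied least of the 7 over the libraries (SD 0.293 and 0.491), and profiles that vary little lie close by this measure. Serping1 had few counts besides. C1ra and C1s1, which act in 1 complex, were 2.71 apart. As an example of a close profile, Il12rb1 averaged 11.4 ± 0.593 CPM in untreated EpH4, 16.3 ± 0.858 with PM2.5, and in EpH4-AS 0.495 ± 0.104 without it and 1.18 ± 0.178 with it (SD, n = 2).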

How the data were processed

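The genes and lists were chosen with earlier results of these data known. Raw counts per gene on GRCm39 were deposited by the authors, with RPKM (counts divided by exon length and library size, per the file headers) and total gene reads, which also take in reads beyond exons. The libraries were made with a stranded mRNA kit, per the labels' protocols. Which aligner, counter and annotation were used is not stated in the labels or headers. Of 25413 genes, 13716 passed filterByExpr (minimum count 10) with 99.964% of counts. After TMM scaling, edgeR 4.0.16 under R 4.3.3 fitted the counts (quasi-likelihood, 4 groups, 4 residual degrees of freedom), two-sided, with Benjamini-Hochberg adjustment per comparison. The SE was the size of the log2 change divided by the root of the F statistic. Replicates of every group differed by more than sampling noise. The script was tested on simulated data. Alternatives used DESeq2 1.42.0 and limma 3.58.1 (pseudocount 1 for RPKM), among others. Beside the 8 genes, list members could be named, and the 3 genes nearest in profile were, while 2 list members are counted but not reported here. Coding sequences were compared with Biopython 1.88. Sequences are on GRCm38, coordinates of genes on GRCm39.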

Additional observations from a re-analysis of the deposited data

Results flagged for a closer look

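The PM2.5 effect differed between EpH4-AS and EpH4 by a tested interaction for 3 genes: it was larger in EpH4-AS for C3 (log2 difference of effects 0.98), and smaller for C1s1 (-0.71) and C4b (-1.11). Masp1 had a mean of 1084 reads outside its exons in untreated EpH4-AS, in data that the tests of exon counts do not use, while its exon counts there were 4 and 5. Cd55 had 31 reads outside its exons over the 4 EpH4 libraries and 0 in EpH4-AS, with 0 exon counts in both lines.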

How the results depend on the processing

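Of the fold changes of single complement genes under the alternatives, 564 kept their side of the threshold with no called value changing direction. Changes of direction between values that were not called were counted among these 564. Of the rest, 10 passed the threshold newly, 18 no longer passed it and 3 reversed while called in either setting. The reversed values came from counting reads differently, chosen after seeing the data: Masp1 between the lines with total gene reads (0.49 untreated and 0.29 with PM2.5), and C1ra with PM2.5 between the lines with its copy added (0.80). With the DESeq2 Wald test, 2284 genes were called for PM2.5 in EpH4 (3726 in edgeR), 978 in EpH4-AS (1529) and 1241 for the interaction (1932); the cause was not tested. Without the filter, 2 of the complement genes were called in EpH4-AS in place of 1, C1ra being added (adjusted p = 0.0301). Leaving out each library in turn gave 2154 to 3969 genes for PM2.5 in EpH4, 363 to 2095 in EpH4-AS and 878 to 2633 for the interaction, where fewer samples were fitted and a library left alone in its group was taken to spread as the others do. Complement genes called then ranged from 4 to 6 in EpH4, 5 to 6 between untreated lines and 2 to 4 for the interaction. The C4b interaction had adjusted p from 0.0881 to 0.229 in the 6 leave-outs that lost it (untreated EpH4 replicate 2, exposed EpH4 replicate 2 and each EpH4-AS library), 0.169 in the DESeq2 Wald test, 0.0726 with total gene reads and 0.287 with C4a added. The C1ra interaction (adjusted p = 0.0654) passed the threshold with the DESeq2 Wald test (0.0453), without the filter (3.72e-05), without untreated EpH4 replicate 1 (0.000628) and without exposed EpH4 replicate 1 (0.00967). With scaling by library totals, PM2.5 calls in EpH4-AS split into 715 higher and 917 lower (877 and 652 with TMM), and interaction calls into 838 and 1100 (1042 and 890). Replicate numbers did not pair the libraries: deviations of same-numbered libraries correlated across genes from -0.101 to 0.0646. With a replicate block, 3258 genes were called in EpH4, 1252 in EpH4-AS and 1580 for the interaction, and the C4b interaction had adjusted p = 0.0703. With the block crossed within EpH4 the counts were 4118, 1831 and 2303. Genes with few counts, Cfb, Serping1 and Masp1 in EpH4-AS, were limited by depth: 1 count was worth 0.0363 to 0.0632 CPM.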
